A study of Mus musculus with 12 samples.

Results

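The genes described here are 10 transporters that carry bile acids and other organic solutes across the membranes of the hepatocyte: Abcb11, Abcb4, Abcb1a, Abcc2, Abcc3, Abcc4, Slc10a1, Slco1a1, Slco1a4 and Slco1b2. They were picked by name, and each was read from a probe set that the platform annotation assigns to that 1 gene. All 10 were measured, out of 22180 genes in all, each by 1 probe set. The samples are livers of male mice in 4 groups of 3: wild type on normal diet, Lats2-CKO on normal diet, wild type on high-cholesterol diet and Lats2-CKO on high-cholesterol diet. The Lats2 product is a Hippo pathway kinase. The mutant line is called both Lats2-CKO and Lats2-KO in the labels, which state neither the deleted part of the gene nor the cells that lost it nor a Cre driver, and give no strain. All mice were 8 weeks old when the diets began. The normal diet was a chow without cholesterol, the other a Paigen-type diet with 1.25% cholesterol, and both were given for 9 weeks. The replicates are labelled as biological, with no statement of litter or cage.

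Hepatocytes make bile by moving solutes from blood to the canaliculus, a narrow channel between neighbouring cells. Carriers on the blood side (Slc10a1 and the Slco1 family) take bile acids up, and ATP-driven pumps on the canalicular side (Abcb11, Abcb4, Abcc2 and Abcb1a) export bile salts, phospholipid, conjugates and drugs. Abcc3 and Abcc4 pump bile acids and conjugates back to blood and are known to be induced when bile acids accumulate in the cell. The receptors FXR, CAR and PXR and the factor NRF2 are textbook regulators of several of these genes. Classical Paigen diets also contain cholic acid, although the labels used here name only the cholesterol.

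The efflux pumps Abcb1a, Abcb11, Abcc2, Abcc3 and Abcc4 and the uptake carrier Slco1a4 had higher group means on the high-cholesterol diet in both genotypes. The smallest of these changes was that of Abcc3 in wild type, 0.10 ± 0.24 (log2). Slco1a1 had lower means in both genotypes, and Slc10a1 in wild type only. The phospholipid floppase Abcb4 and the uptake carrier Slco1b2 had fitted changes of -0.02 ± 0.12 and 0.00 ± 0.14 (log2, averaged over genotypes, all arrays). No transporter passed the threshold in any comparison when all 12 arrays were fitted, while 0% to 1.24% of all genes did, depending on the comparison. Each normal-diet array was set against the range of the 5 others. All but 1 lay outside it for 1 to 4 of the 10 genes and 26.9% to 39.1% of all genes. The other, array 3 of the wild-type normal-diet group, lay outside it for 9 of the 10 genes, and for 40.3% of all genes. Without that array, Abcb1a, Abcb11 and Abcc3 passed upward with the diet averaged over genotypes, 3 of 10 against 7.24% of all genes. Abcb4, Abcc2, Abcc4 and the 4 uptake carriers did not pass. With the array sets (defined below) also as a block, Abcb11 no longer passed. The array was singled out by its expression values, and leaving it out can by itself widen the diet changes. That fit is therefore no separate support for a rise. No difference between the genotypes passed the threshold with or without that array.

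Every value is a log2 expression level after RMA, so that a difference of 1 is a 2-fold difference, and levels of different genes are not compared, since probe sets differ in brightness. Over all genes, correlations between arrays ran from 0.967 to 0.995. Lats2 itself was lower on each of the 6 Lats2-CKO arrays (4.37 to 4.99) than on any of the 6 wild-type arrays (5.12 to 5.97). That difference, -0.73 ± 0.16 (SE) averaged over diets, did not pass the threshold (limma adjusted p = 0.486), and whether the probe set lies in the deleted part is not known. The arrays form 2 sets by their median value. The higher set holds arrays 1 and 2 of each normal-diet group and array 1 of each high-cholesterol group, so that the sets are unequally spread over the diets, and values within each set are given with the diet changes. The mean of 11 hepatocyte markers lay between 11.42 and 11.66 on every array. The mean of 12 Kupffer cell and macrophage markers ran from 5.89 to 6.45 and from 5.44 to 5.64 on the wild-type and Lats2-CKO normal-diet arrays, and from 6.39 to 7.75 and from 6.03 to 6.67 on the corresponding high-cholesterol arrays. The mean of 9 cholangiocyte markers, of which Krt7, Cftr and Cldn7 were dim (mean under 3.04), ran from 3.40 to 3.56, 3.31 to 3.46, 3.41 to 3.64 and 3.67 to 3.83 in the same order of genotype within diet. The mean of 7 endothelial markers ran from 7.74 to 7.78, 7.05 to 7.37, 7.62 to 7.79 and 7.04 to 7.45 in that order. All 7 were fitted lower in Lats2-CKO averaged over diets, and none passed the threshold. All 12 macrophage markers were fitted higher on the high-cholesterol diet, of which Clec4f and Cd5l passed the threshold. The part of these cell types in the results below was not tested, and in a piece of liver fewer cells of a type cannot be told apart from less RNA per cell.

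Of the canalicular pumps, Abcb11 (the bile salt export pump, a textbook FXR target) read 9.56, 9.78 and 10.36 in wild-type livers fed normal diet and 9.47, 9.90 and 9.29 in Lats2-CKO livers fed normal diet. On the high-cholesterol diet it read 9.92, 10.64 and 10.50 in wild type and 10.55, 10.09 and 10.51 in Lats2-CKO. All 6 high-cholesterol arrays thus lay above every normal-diet array but wild-type array 3, and in Lats2-CKO the diet groups did not overlap, as for 8.98% of all genes in that direction. The diet change was 0.45 ± 0.25 (SE) in wild type and 0.83 ± 0.25 in Lats2-CKO, or 0.64 ± 0.18 averaged over genotypes (limma adjusted p = 0.1001). Without wild-type normal-diet array 3 the averaged change was 0.76 ± 0.16, a 1.69-fold rise (limma adjusted p = 0.0224). With the array sets also as a block it was 0.76 ± 0.20 and no longer passed (limma adjusted p = 0.0623). Taken set by set, the averaged change was 0.56 (higher set) and 0.61 (lower set). In the same order it was 0.25 and 0.21 in wild type, and 0.86 and 1.01 in Lats2-CKO.

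Abcb1a encodes a P-glycoprotein that exports drugs and other lipophilic compounds. Its probe set read 3.36, 4.06 and 6.98 in wild-type livers fed normal diet and 4.72, 4.61 and 3.73 in Lats2-CKO livers fed normal diet. On the high-cholesterol diet it read 6.06, 7.04 and 5.67 in wild type and 5.30, 6.32 and 6.78 in Lats2-CKO. The lowest high-cholesterol array was above 5 of the 6 normal-diet arrays, and wild-type normal-diet array 3 was the second highest of all 12. The averaged diet change was 1.62 ± 0.56 with all arrays (limma adjusted p = 0.164) and 2.16 ± 0.34 without that array, a 4.47-fold rise (limma adjusted p = 0.0053). In wild type alone the change went from 1.45 ± 0.79 (limma adjusted p = 0.550) to 2.55 ± 0.50 (adjusted p = 0.0330). With the array sets also as a block the wild-type call was lost, at 2.41 ± 0.59 (limma adjusted p = 0.0808). Within the array sets the wild-type change was 2.35 (higher set) and -0.63 (lower set), and the only wild-type normal-diet array of the lower set is array 3. The Lats2-CKO change was 0.63 and 2.82 in those sets.

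Abcb1b is a close relative of Abcb1a, and whether the probe set of each also reads the other was not checked. Its own probe set read 2.94, 2.51 and 2.93 in wild-type livers fed normal diet, and 3.004, 3.50 and 6.86 in Lats2-CKO livers fed normal diet. High-cholesterol livers read 3.08, 7.15 and 7.16 in wild type and 6.28, 6.50 and 7.56 in Lats2-CKO. The wild-type normal-diet values of Abcb1b were dim, under 3.04. Abcb1a and Abcb1b did not follow each other on 3 arrays. On wild-type normal-diet array 3 and wild-type high-cholesterol array 1 Abcb1a was high and Abcb1b low, and on Lats2-CKO normal-diet array 3 Abcb1a was low and Abcb1b high. The averaged diet change of Abcb1b was 2.66 ± 0.80 (limma adjusted p = 0.119).

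Abcb4 (Mdr2) flips phosphatidylcholine into bile, where it protects membranes from bile salts. It read 10.38, 10.46 and 10.95 in wild-type livers fed normal diet and 10.34, 10.53 and 10.80 in Lats2-CKO livers fed normal diet. The high-cholesterol arrays read 10.54, 10.69 and 10.50 in wild type and 10.45, 10.40 and 10.77 in Lats2-CKO, within the span of the normal-diet arrays. The averaged diet change was -0.02 with a 95% interval of -0.28 to 0.25, or 0.07 (higher set) and -0.29 (lower set). In wild type the Abcb4 change was -0.02 ± 0.17 with all arrays and 0.16 ± 0.15 without normal-diet array 3. Abcc2 (Mrp2), which exports bilirubin glucuronides and other conjugates, read 10.88, 10.85 and 11.47 in wild-type livers fed normal diet and 11.08, 10.88 and 11.20 in Lats2-CKO livers fed normal diet. It read 11.11, 11.42 and 11.27 in wild type and 11.03, 11.33 and 11.45 in Lats2-CKO on the high-cholesterol diet. These ranges overlapped in both genotypes, and the averaged change of 0.21 ± 0.13 did not pass the threshold (limma adjusted p = 0.426). Without wild-type normal-diet array 3 it was 0.31 ± 0.10 (limma adjusted p = 0.0984). By array set the Abcc2 change was 0.24 (higher) and -0.13 (lower) in wild type, and 0.04 and 0.19 in Lats2-CKO.

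**Figure D1:**
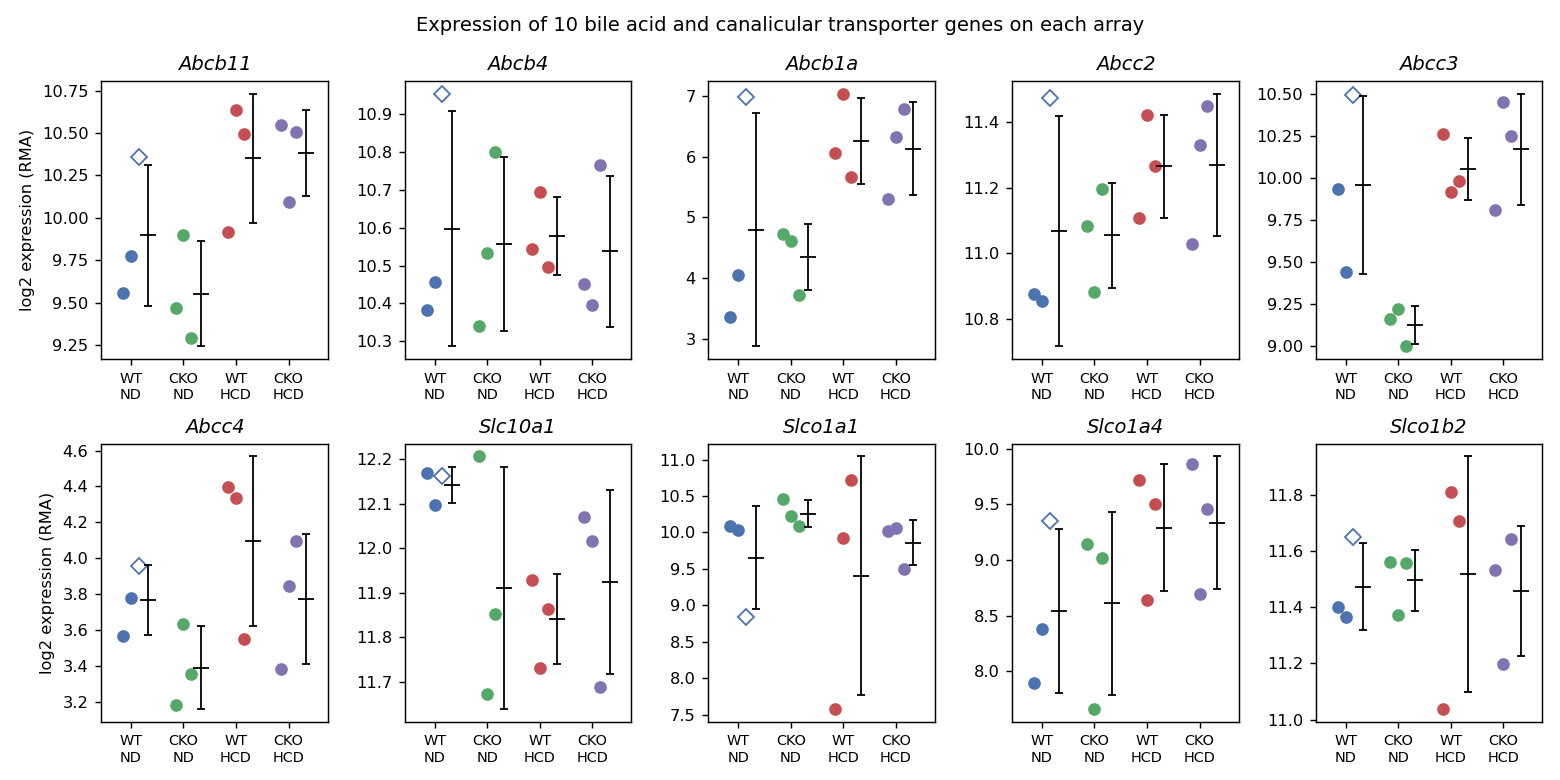
Log2 expression of the 10 transporter genes (vertical axes, each with its own range) on the 3 arrays of each group (points), with the group mean ± SD beside them; CKO stands for Lats2-CKO, ND for normal diet and HCD for high-cholesterol diet. The open diamond is wild-type normal-diet array 3, which sits at 6.98 for Abcb1a while the other normal-diet arrays lie between 3.36 and 4.72.

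Of the promoters below, those of Abcb11 and Slco1b2 are shown because they carry a near-match to the classical FXR binding motif, an inverted repeat of AGGTCA with 1 base between the copies, and that of Abcb1a because it had the largest fitted diet change. Sequences are the 250 bases before the annotated start, 5′ to 3′ in the direction of the gene, from RefSeq on GRCm38.p6. Capitals mark the inverted repeat where it was found. Abcb11 lies at chr2:69342617-69342866 (minus strand), Slco1b2 at chr6:141629268-141629517 (plus strand) and Abcb1a at chr5:8566841-8567090 (plus strand).
Abcb11: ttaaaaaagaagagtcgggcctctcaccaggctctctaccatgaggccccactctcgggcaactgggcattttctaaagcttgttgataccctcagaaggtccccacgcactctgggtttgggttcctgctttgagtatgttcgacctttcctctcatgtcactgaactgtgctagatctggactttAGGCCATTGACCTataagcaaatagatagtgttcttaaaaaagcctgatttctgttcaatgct
Slco1b2: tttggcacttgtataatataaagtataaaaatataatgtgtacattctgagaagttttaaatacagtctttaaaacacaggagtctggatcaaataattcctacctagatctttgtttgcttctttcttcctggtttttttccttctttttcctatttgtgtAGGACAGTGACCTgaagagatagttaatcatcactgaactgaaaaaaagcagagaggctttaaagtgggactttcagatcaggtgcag
Abcb1a: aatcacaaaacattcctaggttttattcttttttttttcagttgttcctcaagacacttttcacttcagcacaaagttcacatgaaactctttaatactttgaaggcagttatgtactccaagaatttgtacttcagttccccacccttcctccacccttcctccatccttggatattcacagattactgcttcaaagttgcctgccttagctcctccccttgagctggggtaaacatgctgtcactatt

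Both strands of 300-base windows (250 before and 50 after the start) were searched, with 11 windows for 9 of the 10 members and 32851 windows in all; Abcc3 is named only. The exact repeat AGGTCANTGACCT was in no member window and in 0.00913% of all windows. With 1 mismatch allowed, a search chosen after the sequences were seen, it was in Abcb11 and Slco1b2 and in 0.0822% of all windows. Counted from 1 at the repeat's first base, the Abcb11 site AGGCCATTGACCT (bases -63 to -51) has the substitution T4C, and the Slco1b2 site AGGACAGTGACCT (bases -88 to -76) has T4A. The half-site AGGTCA, which also lies inside those repeats, was in 5 members (Abcb11, Slco1b2, Slco1a1, Slc10a1 and Abcc2) and in 16.3% of all windows. TGACNNNGC, the core of the antioxidant response element that NRF2 binds, was in Abcb1a, Abcc2 and Abcc4 and in 12.4% of all windows. A match describes letters and shows no binding.

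Of the pumps toward blood, Abcc3 (Mrp3), which carries glucuronides and bile acids, had the smallest unadjusted p of the 10 genes for diet in Lats2-CKO. It read 9.16, 9.22 and 9.00 in Lats2-CKO livers fed normal diet and 9.81, 10.45 and 10.25 in Lats2-CKO livers fed the high-cholesterol diet, with no overlap. In wild type it read 9.93, 9.44 and 10.50 with normal diet and 10.26, 9.91 and 9.98 with the high-cholesterol diet, which overlapped. The change was 1.05 ± 0.24 in Lats2-CKO, a 2.06-fold difference (limma adjusted p = 0.0916), and 0.10 ± 0.24 in wild type (limma adjusted p = 0.932), the latter 0.37 ± 0.21 without normal-diet array 3 (adjusted p = 0.404). Without wild-type normal-diet array 3, which enters the Lats2-CKO change only through the shared spread, Abcc3 rose in Lats2-CKO by 1.05 ± 0.18 (limma adjusted p = 0.0213). Averaged over genotypes it then rose by 0.71 ± 0.14 (limma adjusted p = 0.0145), against 0.57 ± 0.17 with all arrays (adjusted p = 0.117). Within the higher and lower array sets the Abcc3 change was 0.62 and 1.35 in Lats2-CKO, and 0.58 and -0.55 in wild type.

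Abcc4 (Mrp4), exports bile acids together with glutathione and also cyclic nucleotides. It read 3.57, 3.78 and 3.96 in wild-type livers fed normal diet and 3.18, 3.64 and 3.35 in Lats2-CKO livers fed normal diet. It read 4.40, 4.34 and 3.55 in wild type and 3.38, 3.84 and 4.09 in Lats2-CKO on the high-cholesterol diet. The diet groups overlapped in both genotypes, and the averaged change of 0.36 ± 0.17 did not pass the threshold (limma adjusted p = 0.308). On every array the level was low (3.18 to 4.40), not far above the dim value of 3.04. By array set the Abcc4 change was 0.72 (higher) and -0.01 (lower) in wild type, and -0.03 and 0.62 in Lats2-CKO.

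Among the uptake carriers, Slc10a1 (NTCP, the sodium-dependent carrier of conjugated bile acids) was the steadiest of the 10 genes, with a pooled SD within groups of 0.18. It read 12.17, 12.10 and 12.16 in wild-type livers fed normal diet and 11.93, 11.73 and 11.86 in wild-type livers fed the high-cholesterol diet, with no overlap. In Lats2-CKO it read 12.21, 11.67 and 11.85 with normal diet and 12.07, 12.02 and 11.69 with the high-cholesterol diet, which overlapped. The change was -0.30 ± 0.14 in wild type (limma adjusted p = 0.492) and 0.01 ± 0.14 in Lats2-CKO (adjusted p = 0.981). Wild-type normal-diet array 3 lay beside its group for this gene, and without it the wild-type change was -0.29 ± 0.17. Within the higher and lower sets the wild-type change was -0.20 and -0.37.

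Slco1a1, an organic anion carrier that is male-predominant in mouse liver, read 10.09, 10.03 and 8.84 in wild-type livers fed normal diet and 10.45, 10.23 and 10.09 in Lats2-CKO livers fed normal diet. High-cholesterol livers read 7.58, 9.92 and 10.73 in wild type and 10.02, 10.06 and 9.50 in Lats2-CKO. Its range was set by single arrays, since wild-type high-cholesterol arrays 1 and 3 were the lowest and the highest of all 12. The Lats2-CKO diet groups did not overlap, by a margin within 0.1 log2 units, and the change there was -0.40 ± 0.64 (limma adjusted p = 0.841). In wild type the change was -0.24 ± 0.64, or -2.48 (higher set) and 1.49 (lower set).

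Slco1a4, a carrier that CAR and PXR ligands are known to induce, read 7.90, 8.38 and 9.35 in wild-type livers fed normal diet and 9.15, 7.66 and 9.02 in Lats2-CKO livers fed normal diet. It read 9.72, 8.64 and 9.51 in wild type and 9.86, 8.69 and 9.46 in Lats2-CKO on the high-cholesterol diet. The ranges overlapped in both genotypes, with a change of 0.75 ± 0.49 in wild type and 0.73 ± 0.49 in Lats2-CKO (averaged limma adjusted p = 0.292). Without normal-diet array 3 the wild-type change was 1.15 ± 0.49 (limma adjusted p = 0.265), and the wild-type ranges no longer overlapped. Within the array sets the averaged change of Slco1a4 was 1.52 for the higher and -0.11 for the lower one.

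Slco1b2, the mouse counterpart of the human hepatic bile acid and drug carriers OATP1B, read 11.40, 11.37 and 11.65 in wild-type livers fed normal diet and 11.56, 11.37 and 11.56 in Lats2-CKO livers fed normal diet. It read 11.04, 11.81 and 11.71 in wild type and 11.53, 11.20 and 11.64 in Lats2-CKO on the high-cholesterol diet. The groups overlapped throughout, and the 95% interval of the averaged change, -0.30 to 0.30, bounds a difference in either direction. By array set the averaged change of Slco1b2 was -0.14 (higher) and -0.01 (lower).

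Across the members, the largest fitted diet changes averaged over genotypes were those of Abcb1a (1.62), Slco1a4 (0.74), Abcb11 (0.64) and Abcc3 (0.57), all upward. In the fit of all 12 arrays 0 of 10 transporters passed in wild type, against 0% of all genes. In Lats2-CKO it was 0 of 10 against 0.271% of all genes, and averaged over genotypes 0 of 10 against 1.24%. By limma's unadjusted p under 0.05 the counts were 0 of 10 (10.6% of all genes) in wild type, 3 of 10 (13.4%) in Lats2-CKO and 3 of 10 (18.0%) averaged, the 3 being Abcb11, Abcb1a and Abcc3 both times. With wild-type normal-diet array 3 left out, the unadjusted count in wild type was 4 of 10 (Abcb11, Abcb1a, Abcc2 and Slco1a4), against 17.3% of all genes. In Lats2-CKO the same 3 genes passed as with all arrays, against 14.5%, and averaged it was those 3 with Abcc2 and Slco1a4, 5 of 10 against 22.7%. Without wild-type normal-diet array 3, 1 member passed in wild type (Abcb1a) against 2.33% of all genes, 1 in Lats2-CKO (Abcc3) against 2.11%, and 3 averaged over genotypes against 7.24%. Each of these rose, and no member fell. Abcb11, Abcb1a, Abcc3, Abcc2, Abcc4 and Slco1a4 each kept a fitted averaged change above 0 under the 22 alternative settings. Some of these, such as another prior, leave the fitted change itself as it is and could not turn a sign. The same count was not made over all genes. Within the lower array set, which is not among the settings, the averaged change of Slco1a4 was -0.11, while the rest stayed above 0 in both sets. The median averaged change of the 10 members was 0.28 with all arrays, beside -0.02 for all genes.

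**Figure D2:**
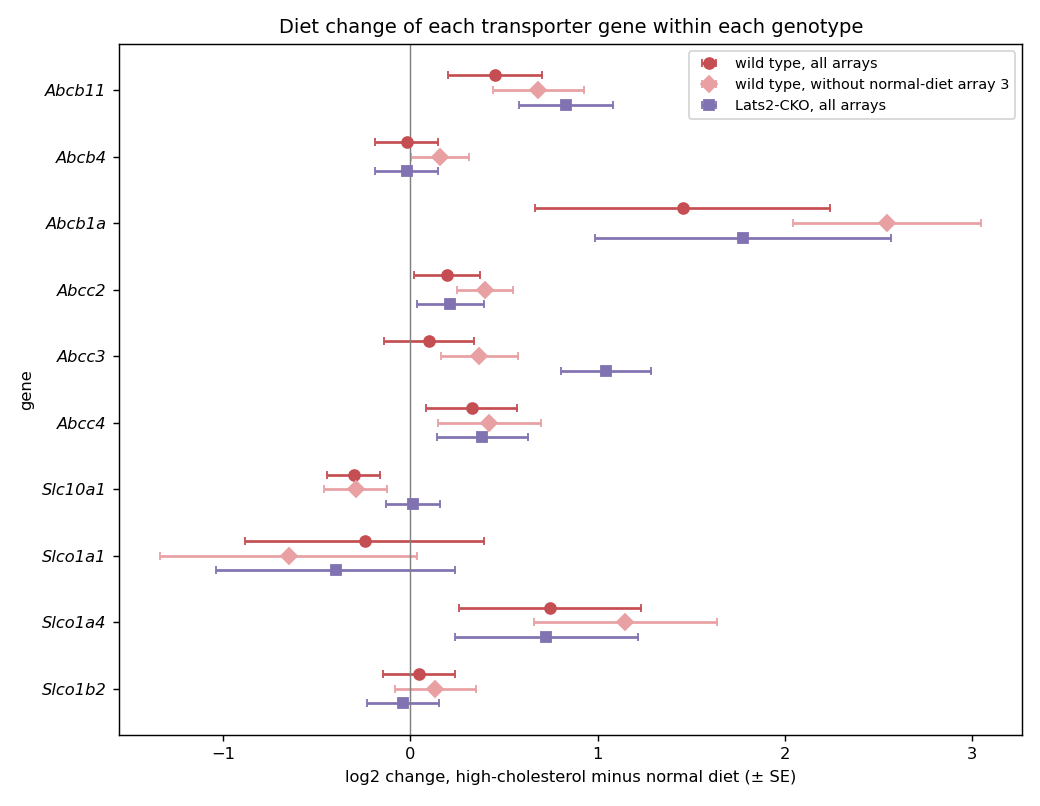
Log2 change from normal to high-cholesterol diet (horizontal axis, ± SE from limma) of each transporter gene in wild type with all arrays, in wild type without normal-diet array 3, and in Lats2-CKO. Leaving that array out moves the wild-type Abcb1a change from 1.45 to 2.55 and that of Abcb4 from -0.02 to 0.16.

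Groups that did not overlap were counted as well. In Lats2-CKO, Abcb11, Abcb1a and Abcc3 were higher on the high-cholesterol diet on every array, against 8.98% of all genes, and Slco1a1 was lower, against 10.5%. In wild type only Slc10a1 was separated, toward lower values, against 8.81% of all genes. Without normal-diet array 3, Abcb11, Abcb4, Abcb1a, Abcc2 and Slco1a4 were higher on every wild-type high-cholesterol array than on both remaining normal-diet arrays, against 14.7% of all genes. Over both genotypes together, Abcb11 and Abcb1a then separated the 6 high-cholesterol from the 5 normal-diet arrays, against 2.64% of all genes.

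The values of wild-type normal-diet array 3 lay outside the range of the 5 other normal-diet arrays for 9 of the 10 transporters, above it for 8 and below it for Slco1a1, while 40.3% of all genes were outside that range. Each of the 5 other normal-diet arrays was in turn outside the range of the rest for 1 to 4 transporters and 26.9% to 39.1% of all genes. It lay inside the range of the high-cholesterol arrays for 6 transporters (74.1% of all genes), where the other normal-diet arrays did so for 4 or 5 (55.3% to 64.8%). For Abcb4, Abcc2 and Abcc3 it was the highest of all 12 arrays. Its Abcb1a value was 3.27 above the mean of arrays 1 and 2. Over all genes it correlated more closely with Lats2-CKO high-cholesterol array 3 (r = 0.993) than with either array of its own group (r = 0.982 at most). Whether the label or the animal differs was not tested.

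**Figure D3:**
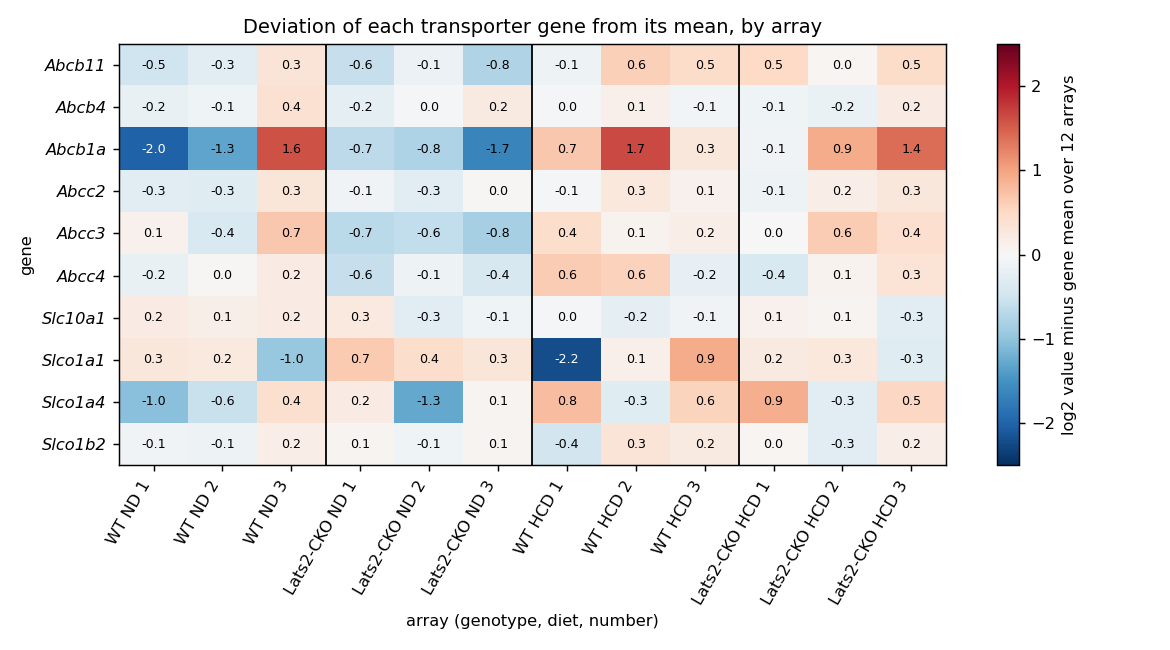
Deviation of each transporter gene (rows) from its own mean over the 12 arrays (columns, grouped by genotype and diet), in log2 units, with blue below and red above the mean and the value printed in each cell. In the Abcb1a row, wild-type normal-diet array 3 (1.6) stands among the high-cholesterol arrays (-0.1 to 1.7) rather than the other normal-diet arrays (-2.0 to -0.7).

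Between genotypes, no transporter passed the threshold on normal diet (0.0135% of all genes did), on the high-cholesterol diet (0%), or averaged over diets (0.00451%). Without wild-type normal-diet array 3 it was again 0 of 10 in each, against 0.0180%, 0% and 0.00902% of all genes. At limma's unadjusted p under 0.05 there was 1 of 10 on normal diet (8.99% of all genes), 0 on the high-cholesterol diet (2.93%) and 0 averaged (5.97%). That 1 was Abcc3, which was lower on the 3 Lats2-CKO than on the 3 wild-type normal-diet arrays without overlap, against 7.36% of all genes. Its difference was -0.83 ± 0.24 (limma adjusted p = 0.281), and -0.56 ± 0.21 without wild-type normal-diet array 3 (adjusted p = 0.406). On the high-cholesterol diet the genotype difference of Abcc3 was 0.12 ± 0.24. Slco1a1 was the other gene without overlap on normal diet, higher in Lats2-CKO, against 5.96% of all genes. Its lowest Lats2-CKO array read 10.0939 and its highest wild-type array 10.0866, nearly a tie. The fitted difference was 0.61 ± 0.64 (limma adjusted p = 0.869). Leaving out wild-type normal-diet array 3 gave 0.20 ± 0.69, and -0.05 ± 0.67 with the array sets also as a block.

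Abcc4 was fitted lower in Lats2-CKO on both diets, with a difference of -0.38 ± 0.24 under normal diet and -0.32 ± 0.24 under high cholesterol, and the arrays of the genotypes overlapped on both diets. For Abcb1a the direction on normal diet turned with wild-type array 3, from -0.44 ± 0.79 with it to 0.65 ± 0.50 without it. On the high-cholesterol diet the genotype differences of all 10 transporters lay between -0.32 and 0.45.

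The interaction asks whether the diet change differed between genotypes. None of the 10 passed, against 0.00451% of all genes, and none without wild-type normal-diet array 3 (0.00902%). Abcc3 was the 1 of 10 at limma's unadjusted p under 0.05 (5.62% of all genes), with an interaction of 0.95 ± 0.34 (limma adjusted p = 0.779) and 0.68 ± 0.28 without wild-type normal-diet array 3 (adjusted p = 0.649). Within the array sets the Abcc3 interaction was 0.04 (higher) and 1.90 (lower), and the only wild-type normal-diet array of the lower set is array 3. So the larger Abcc3 change in Lats2-CKO is not shown to differ from that in wild type. For Abcb11 the interaction was 0.38 with a 95% interval of -0.40 to 1.16, and for Abcb1a 0.32 with an interval of -2.13 to 2.77.

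The spread within groups set what could be seen for each transporter. The pooled SD was 1.12 for Abcb1a, 0.91 for Slco1a1 and 0.69 for Slco1a4, and between 0.18 and 0.35 for the 7 others. For Abcb1a the SD was 1.92 in wild type on normal diet, the group of array 3, and 0.54 to 0.76 in the other groups. For Slco1a1 it was 1.63 in wild type on the high-cholesterol diet and 0.18 to 0.71 in the other groups. All 10 exceeded the median of 0.18 over all genes, Slc10a1 only narrowly (0.180 against 0.176). That median includes dim genes, and the members were not compared with genes of like level.

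Other genes of bile acid handling give the setting of these values, counted by limma at an adjusted p under 0.05 for diet averaged over genotypes. Of 21 other hepatic transporters 1 rose, Abcg5, a subunit of the canalicular sterol exporter (1.61 ± 0.30), and none fell. In the fit without wild-type normal-diet array 3, 2 rose (Abcg5 and Abcg8) and 2 fell (Slc47a1 and Slc22a7, the latter dim on the high-cholesterol arrays). Of 17 genes of bile acid synthesis and conjugation 2 fell, Cyp7b1 of the alternative pathway (-1.84 ± 0.35) and the sterol carrier Scp2 (-0.30 ± 0.06). Cyp7a1, whose enzyme sets the pace of bile acid synthesis, had -2.45 ± 1.09 (limma adjusted p = 0.269) and the cholic acid enzyme Cyp8b1 -4.47 ± 1.02 (adjusted p = 0.0605). Both read low on wild-type normal-diet array 3 (Cyp7a1 3.80, Cyp8b1 3.29) beside 10.23 and 10.69, and 10.23 and 9.83, on arrays 1 and 2. Without array 3, 4 genes of this list fell and 2 rose (Cyp39a1 and Akr1d1). Cyp7a1 fell by 3.55 (limma adjusted p = 0.0068) and Cyp8b1 fell by 5.59 (limma adjusted p = 0.0001).

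Of 15 nuclear receptors and bile acid signalling genes 1 rose, the FGF co-receptor Klb (0.66 ± 0.10), and none fell, while Ahr fell as well without wild-type normal-diet array 3. The FXR gene Nr1h4 had -0.14 ± 0.11 and its target Nr0b2 (SHP) 0.30 ± 0.26, neither past the threshold. Of 14 target enzymes of CAR, PXR and NRF2 1 rose, the PXR target Cyp3a11 (0.84 ± 0.17), and 1 fell, the retinaldehyde dehydrogenase Aldh1a1 (-0.35 ± 0.06). In the fit without array 3, 6 of them rose (Cyp2b9, Cyp2c29, Cyp2c55, Cyp3a11, Ces2a and Gclm) and 2 fell (Aldh1a1 and Srxn1). The median of that list was 0.58, beside 0.28 for the 10 transporters and -0.02 for all genes. Of 13 genes of canalicular trafficking and junctions 1 fell, the claudin Cldn2 (-0.56 ± 0.11), whose level was near the dim end on every array (2.70 to 3.85), and without wild-type normal-diet array 3 Dpp4 rose as well.

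**Figure D4:**
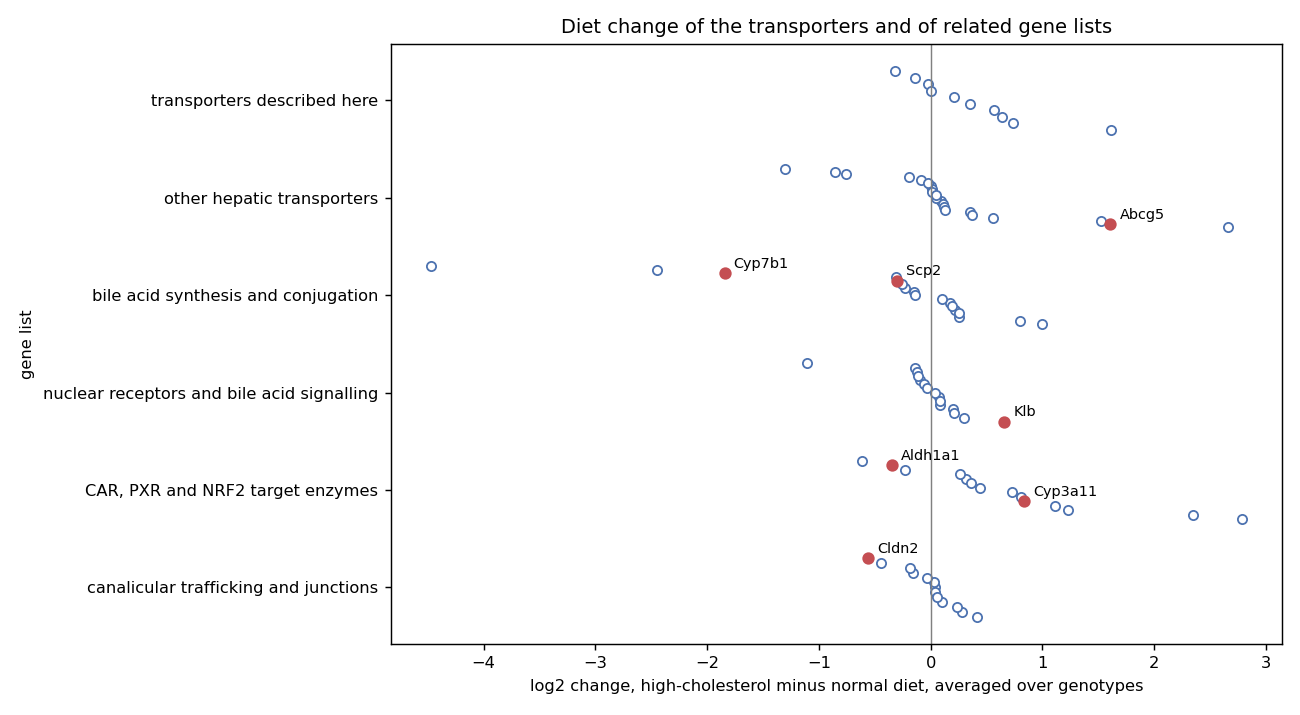
Log2 change from normal to high-cholesterol diet averaged over genotypes (horizontal axis) of each measured gene (points) in the transporters described here and in 5 related gene lists (rows). Filled points with names are the genes with a limma adjusted p under 0.05, and none of the 10 transporters is among them when all 12 arrays are fitted.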

How the data were processed

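Livers of 12 male mice were measured on 1-colour Affymetrix arrays, 3 in each of 4 groups of genotype and diet. The authors deposited log2 expression per probe set, made by RMA in Partek 6.6 per the submitters' processing notes. RMA settings and the genome build behind the probe sets are not given in the sources used here, and the log2 scale was read from the values (1.94 to 14.2). RMA levels the overall distribution of arrays, so a shift of most genes would not be seen. From 250 ng of total RNA per array, 41345 probe sets were read. Of these, 23521 had 1 gene symbol in the platform annotation, 1814 several and 16010 none, and only the first were used. The probe set with the highest mean stood for a gene with several, which left 22180 genes. Groups come from the labels.

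Changes were tested with limma 3.58.1 in R 4.3.3 (lmFit, eBayes, two-sided) with 4 group means over all 12 arrays. P-values were adjusted over the 22180 genes by the Benjamini-Hochberg method and read at 0.05. Changes carry their SE from limma, and intervals are at 95%. A fit without wild-type normal-diet array 3 is given beside it, in which that group rests on 2 arrays. The array was singled out by its expression values, so leaving it out can by itself widen the diet changes. The 22 alternatives were other samples, priors, weights, filters, probe set rules, scalings and blocks, and each array left out in turn. Precision is limited by how many arrays there are, and p-values set each fitted change against the spread between these samples.

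The members, the lists of related genes, the array sets and the doubt about that array were chosen or known with earlier results of these data in view. All 10 members were named. From each other list, genes past the threshold in a comparison (at most 3) were eligible, along with Lats2, Abcb1b and a few regulators and enzymes looked at in any case, and the text names part of these. Promoters came from a RefSeq table. Of the eligible genes, Slc51b had no single-gene probe set and is not analysed here.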

Additional observations from a re-analysis of the deposited data

How the results depend on the processing

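All values here concern the transporter members. In wild type the diet called 1 of 10 members without wild-type normal-diet array 3, and 0 to 1 over the 12 fits that each left out 1 array. In Lats2-CKO it called 1, always Abcc3, with only the groups compared (265 genes) and with array weights (274 genes). It did so too with wild-type normal-diet array 3 left out under a block for the array sets (573 genes). Over the fits that left out 1 array it called 0 to 1 (5 to 468 genes). Averaged over genotypes it called 3 with array weights (1371 genes). With the array sets as a block and wild-type normal-diet array 3 left out it called 2, Abcb1a and Abcc3 (1229 genes). Over the fits that left out 1 array it called 0 to 3 (6 to 1605 genes). Of the members' 70 changes (10 genes in 7 comparisons), 34 kept their sign in all 22 alternatives and 5 passed the threshold in at least 1. The same counts were not made over all genes, so these do not set the transporters apart. Where a sign turned or a call was gained, the cause was not tested, apart from the loss of arrays that defines those settings.

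Over all genes, the count called for diet averaged over genotypes, 274 as reported, was 1605 without wild-type normal-diet array 3, 1371 with array weights, 1229 with the array sets as a block and that array left out, 421 with dim genes left out, 43 with the array sets as a block, and as low as 6 (without wild-type normal-diet array 2). In Lats2-CKO the 60 ran from 5 to 573. The replicate block, with the labels' numbers as pairs, called 0 of 10 members in every comparison and 311 genes averaged over genotypes. The numbers were not taken as pairing, since the labels state none and the correlation of deviations was over 0.1 in only 7 of 18 same-numbered pairs. All 18 were above 0 (0.00237 to 0.176) and 9 of 12 arrays correlated best with their own number, a hint from the data that same-numbered arrays vary together.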

Other observations

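Outside the comparisons above, Abcg5 and Abcg8, the subunits of the canalicular sterol exporter, separated the diets as Abcb1a did. Abcg5 read 10.37 to 10.70 on the 6 high-cholesterol arrays, 8.21 to 8.85 on 5 of the 6 normal-diet arrays and 10.45 on wild-type normal-diet array 3. Abcg8 read 9.10 to 9.60, 7.02 to 7.94 and 9.69 on the same arrays. Klb was low on the 3 Lats2-CKO normal-diet arrays (7.79 to 7.87) and between 8.57 and 9.07 on the 9 other arrays. Its interaction of genotype and diet was 1.03 ± 0.20 (limma adjusted p = 0.602). Slc22a7, an organic anion carrier on the blood side, read 3.89, 4.99 and 4.05 in Lats2-CKO livers fed normal diet, above the 9 others (2.85 to 3.63), and its diet change in Lats2-CKO was -1.37 ± 0.26 (limma adjusted p = 0.0599). On every high-cholesterol array and on wild-type normal-diet array 3 it was dim, under 3.04. Abcg8, Abcg5 and Slc22a7 were described after their values were seen.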
